A study of Mus musculus with 31 samples.

Results

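The 16 kidneys of cisplatin-treated mice were ordered by their level of Lrp2, the gene of megalin, and the 8 with the most Lrp2 were set against the 8 with the least, so the groups were chosen by a measured value. They are 16 of the 31 libraries of a bulk RNA-seq study of mouse kidney, with 1 library per animal number. The mice were males on the B6 background, either wild type at Nbl1 (WT) or of the genotype labelled HET, and were given cisplatin or phosphate-buffered saline (PBS) for 4 weeks from 8 weeks of age. Kidneys were taken 3 days after treatment at an age stated as 11 weeks, which the start and length of treatment do not add up to. There were 8 WT cisplatin, 8 HET cisplatin, 8 WT PBS and 7 HET PBS libraries. Neither the dose of cisplatin nor what kind of Nbl1 allele the mice carried is stated in the sources, and nothing in the labels says which animals shared a litter or a cage.

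Cisplatin, a chemotherapy agent, forms platinum adducts on DNA and enters the cells of the proximal tubule, the stretch of the nephron that takes back most of the filtered solute, through transporters of organic cations. Megalin is a large receptor on the brush border of these cells that takes up filtered protein together with cubilin, the product of Cubn. Damaged tubule cells lose transporters, lipid-burning enzymes and mitochondria, and switch on injury genes such as Havcr1 (kidney injury molecule 1) and Lcn2 (neutrophil gelatinase-associated lipocalin).

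Lrp2 was measured in counts per 1e6 of the library's total count (CPM of the total), and the groups were selected on these values, so they are given as a description with no test. In the 8 high-Lrp2 libraries the lowest value was 1538, the median 2078 and the highest 3229. In the 8 low-Lrp2 libraries the lowest was 586, the median 1203 and the highest 1394. The 15 PBS libraries held 5096 to 7177, so every cisplatin kidney stood below every PBS kidney. Just inside the high-Lrp2 group lay HET cisplatin 3, at 1538, and just outside it WT cisplatin 5, at 1394, so the order has no gap at the line that divides the groups. At the ends stood WT cisplatin 6 (3229) and HET cisplatin 6 (2849) at the top, and WT cisplatin 4 (647) and HET cisplatin 8 (586) at the bottom.

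**Figure D1:**
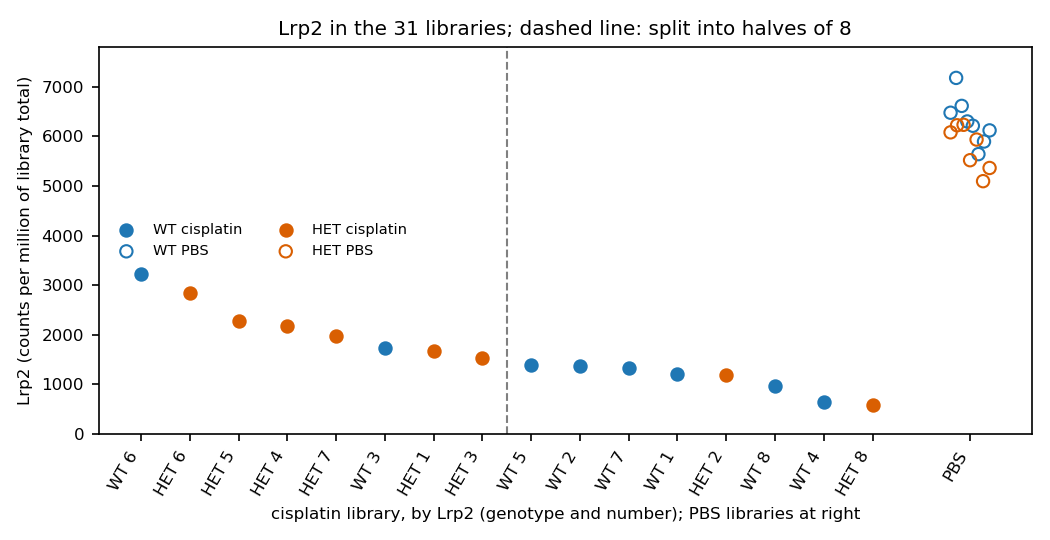
Lrp2 in CPM of the library total (vertical axis) for each cisplatin library in order of Lrp2 (filled points, blue WT and orange HET) and for the PBS libraries (open points, at right); the dashed line divides the 8 high-Lrp2 from the 8 low-Lrp2 libraries. The cisplatin values run from 586 to 3229 without a break at the line, and all lie below the PBS values, which start at 5096.

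The high-Lrp2 group held 6 HET and 2 WT libraries and the low-Lrp2 group 2 HET and 6 WT (two-sided Fisher's exact test, p = 0.132, adjusted p = 0.264 over 6 library properties). Genotype and Lrp2 were thus unevenly mixed, and genotype was a covariate in every comparison unless stated. The Nbl1 level of 3 cisplatin libraries, all in the high-Lrp2 group, lay below the range of the others with their label. HET cisplatin 3 and 4 were at 1.08 and 0.86 CPM, where the other HET cisplatin libraries were at 4.67 to 13.9. WT cisplatin 6 was at 10.7 CPM, where the other WT ones were at 18.1 to 26.2. Among WT cisplatin libraries Nbl1 was lowest in WT cisplatin 6 and 3, with the most Lrp2. It was highest in WT cisplatin 4, with the least Lrp2. Whether any label is wrong was not tested. Total counts were 26.9 to 31.9 in units of 1e6 in the high-Lrp2 group and 24.7 to 30.7 in the low-Lrp2 group, a mean difference of 1.86 (same unit, exact permutation test, two-sided, p = 0.0664, adjusted p = 0.208). Neither the number of detected genes, the animal number nor the library number passed the same test (adjusted p from 0.208 to 0.768). Transcripts of the mitochondrial genome made up 3.54 to 5.12% of counts in the high-Lrp2 group, 2.53 to 3.40% in the low-Lrp2 group and 7.96 to 8.96% under PBS. Malat1, a nuclear long noncoding RNA, made up 2.33 to 3.11%, 3.13 to 4.52% and 1.43 to 1.82%. Neither share overlapped between the 2 cisplatin groups, and the part of either in the results below was not tested.

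Across the transcriptome, 1502 of 18182 tested genes were higher and 668 lower in the high-Lrp2 group (edgeR quasi-likelihood test, Benjamini-Hochberg adjusted p under 0.05), which is 11.9% of the genes, with 8.26% higher and 3.67% lower. These p-values describe an association with the Lrp2 order among treated animals, not an effect of a treatment. With library totals in place of TMM scaling the split was 1055 higher and 1751 lower, and the median log2 fold change of all genes moved from −0.02 to −0.10, so small differences below about that size depend on the scaling. Without WT cisplatin 6 the counts fell to 789 higher and 152 lower, and without HET cisplatin 8 to 868 and 261. Without HET cisplatin 6 they rose to 1634 and 858, and without WT cisplatin 4 they were 1324 and 501. Without HET cisplatin 3 and 4 they were 1442 and 719. CPM below are scaled by TMM. The groups did not overlap at all in 453 genes (2.49%). These shares of 8.26% higher, 3.67% lower and 2.49% without overlap are the background for every list count below. With all 31 libraries sharing 1 estimate of the spread, 2503 genes were higher (13.1%) and 1033 lower (5.42%). Dividing the libraries by Cubn in place of Lrp2 put all 16 in the same groups. Cubn had a correlation of 0.989 with Lrp2 within genotype, so this division is not a separate check.

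The proximal tubule came first in size. Of 22 genes of its early segments (S1 and S2), 21 were higher in the high-Lrp2 group and none lower, with a median log2 fold change of 1.26 beside −0.02 over all tested genes. Lrp2 is itself a gene of these cells, so their direction was partly fixed by the choice of groups, and in bulk tissue fewer tubule cells and less RNA per cell cannot be told apart. Slc22a6, the organic anion transporter OAT1, was at 109, 167 and 285 CPM (lowest, median and highest) in the high-Lrp2 group and at 24.2, 74.2 and 99.5 CPM in the low-Lrp2 group, against a median of 872 CPM under PBS. The groups did not overlap, and the log2 fold change was 1.67 (SE 0.29, adjusted p = 0.00306). Pdzk1, the scaffold that holds apical transporters in place, was at 258, 353 and 474 CPM against 122, 194 and 257 CPM, again with no overlap (log2 fold change 1.08, SE 0.18, adjusted p = 0.00277). Slc34a1, the main phosphate cotransporter of the brush border, was at 440 to 1256 CPM in the high-Lrp2 group and at 45.9 to 509 CPM in the low-Lrp2 group (log2 fold change 1.68, SE 0.46, adjusted p = 0.0256). Slc5a2, the glucose transporter SGLT2, was at 89.2 to 135 CPM against 14.8 to 85.5 CPM (log2 fold change 1.19, SE 0.32, adjusted p = 0.0256). The calls of Slc34a1 and Slc5a2 were lost without WT cisplatin 6 or without HET cisplatin 8, and the list's count fell to 12 without the former and 13 without the latter. Slc6a19, a neutral amino acid transporter, was the member that did not pass, at a median of 111 against 83.0 CPM (adjusted p = 0.0847).

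The straight segment (S3), where cisplatin damage is known to be heaviest in rodents, moved in the same direction, with 12 of 15 listed genes higher, none lower and a median log2 fold change of 1.01. Slc7a13, a cystine and aspartate transporter of S3, was at 4.11, 7.23 and 26.6 CPM in the high-Lrp2 group and at 1.04, 1.59 and 2.19 CPM in the low-Lrp2 group, against 914 to 1139 CPM in PBS kidneys. The cisplatin groups were cleanly apart (log2 fold change 2.77, SE 0.36, adjusted p = 0.0016), yet both stood far below PBS. Slc27a2, a fatty acid transporter and very-long-chain acyl-CoA synthetase, was at 884, 1038 and 1592 CPM against 373, 642 and 885 CPM (log2 fold change 1.17, SE 0.17, adjusted p = 0.00183), and the groups only just overlapped. Serpina1f, a serpin of S3, behaved differently relative to PBS: it was at 87.9, 105 and 118 CPM in the high-Lrp2 group and at 60.8, 80.0 and 86.9 CPM in the low-Lrp2 group, with PBS kidneys at 79.1 to 119 CPM. The high-Lrp2 kidneys thus lay in the PBS range for Serpina1f (log2 fold change 0.58, SE 0.07, adjusted p = 0.00115).

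Among 15 genes of endocytic uptake, Lrp2 left out, 8 were higher and none lower (median log2 fold change 0.23), with 10 higher and 4 lower at an unadjusted p under 0.05. Without WT cisplatin 3 the count was 5. Larger fold changes were seen for genes of the receptor complex, its chaperone and a folate receptor taken up with it. Cubn was at 498, 670 and 951 CPM in the high-Lrp2 group and at 174, 344 and 451 CPM in the low-Lrp2 group, with no overlap (log2 fold change 1.25, SE 0.22, adjusted p = 0.00299). Cubn divides the libraries as Lrp2 does, so this difference restates the choice of groups. Amn, whose product amnionless carries cubilin to the surface, differed by 0.70 on the log2 scale (adjusted p = 0.00371), and Lrpap1, the chaperone of megalin, by 0.75 (adjusted p = 0.00227). Folr1, a folate receptor taken up with megalin, had a log2 fold change of 0.85 (adjusted p = 0.00433). The general machinery was closer to even: Ap2a2, Dab2 and Ctsb had log2 fold changes of 0.23, 0.25 and 0.24 and passed. Of the list, 7 did not pass, among them Myo6, Clcn5, Ocrl, Rab11a and Gipc1, which lay between −0.18 and 0.17. With library totals as the scaling, 5 of the 15 were higher and 3 lower.

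**Figure D2:**
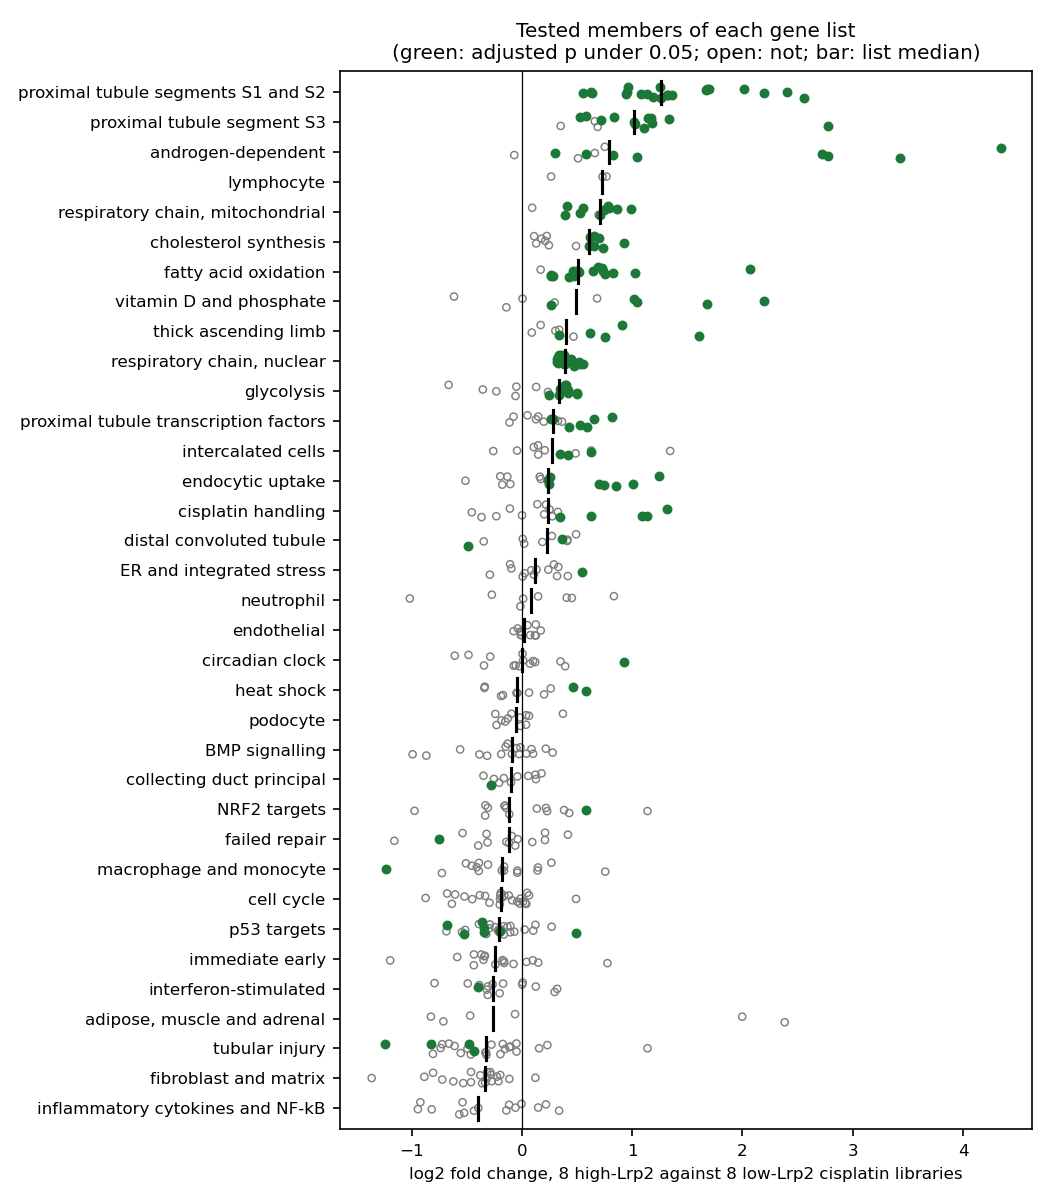
Log2 fold change of each tested member (points) of the gene lists (rows, ordered by median), high-Lrp2 against low-Lrp2 cisplatin libraries; green points passed an adjusted p of 0.05, open points did not, and the black bar is the list's median. The proximal tubule lists have medians of 1.26 and 1.01, the respiratory chain lists lie wholly to the right of 0, and the injury and matrix lists have medians of −0.33 with few or no green points.

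Of 15 transcription factors of the proximal tubule, 7 were higher and none lower, and 9 were higher at an unadjusted p under 0.05. Hnf4a, which drives the mature proximal tubule programme, was at 349, 416 and 585 CPM in the high-Lrp2 group and at 190, 296 and 340 CPM in the low-Lrp2 group, below the PBS range of 655 to 1063 CPM (log2 fold change 0.82, SE 0.15, adjusted p = 0.00342). Esrrg, a nuclear receptor of mitochondrial genes, had a log2 fold change of 0.59 (adjusted p = 0.00436). For it HET cisplatin 8, at 35.6 CPM, lay apart from the other HET cisplatin libraries (57.4 to 85.3 CPM). Hnf4g, a relative of Hnf4a, was nearly even (log2 fold change 0.05, adjusted p = 0.88). The list's count was 3 without WT cisplatin 6, 3 without HET cisplatin 8 and 4 without HET cisplatin 2, and Hnf4a and Esrrg passed in all of these.

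The letters of an HNF4 site (CAAAGTCCA) were looked for on both strands in the 250 bases before the start site of every gene in the RefSeq promoter table of GRCm38.p6, and stood in 126 of 32851 windows (0.384%). Of the listed proximal tubule and endocytic genes, 41 had a window, of which 2 held these letters (Aadat and Slc3a1), so most of these genes do not hold the string there. The window of Slc3a1 is shown because it holds the motif, in capitals, in sequence that no annotated exon covers, and the gene differed between the groups without overlap. A match is a description of letters and not evidence of binding. The window lies at chr17:85028097-85028346 on the plus strand.
Slc3a1: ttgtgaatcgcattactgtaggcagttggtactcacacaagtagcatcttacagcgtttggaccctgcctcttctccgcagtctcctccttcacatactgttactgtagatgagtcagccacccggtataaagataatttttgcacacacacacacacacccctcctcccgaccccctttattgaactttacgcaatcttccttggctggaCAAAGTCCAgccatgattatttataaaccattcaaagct
Slc3a1, the heavy chain of the cystine transporter, was at 389, 446 and 553 CPM in the high-Lrp2 group and at 165, 282 and 386 CPM in the low-Lrp2 group (log2 fold change 0.72, SE 0.15, adjusted p = 0.0077). Cltrn, collectrin, which brings amino acid transporters to the brush border, was at 158, 177 and 271 CPM against 45.9, 112 and 156 CPM (log2 fold change 1.01, SE 0.21, adjusted p = 0.00649).

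The 15 largest fold changes upward were taken among genes with a mean of at least 1 CPM in the high-Lrp2 group. Slc22a28, an organic anion transporter, differed by 4.34 on the log2 scale (SE 0.75, adjusted p = 0.003), from 0.371 to 8.16 CPM in the high-Lrp2 group and 0 to 0.433 CPM in the low-Lrp2 group, beside 155 to 233 CPM under PBS. Its relatives Slc22a26 and Slc22a30 had log2 fold changes of 3.61 and 3.43 with no overlap between the groups. The other members of the 15 largest were C8a, Nat8f7, Ldc1, Slc7a13, Slco1a1, Slc22a22, Nat8f6, Miox, Mep1b, Apoh, Ugt3a1 and Aspdh, at log2 fold changes from 3.44 down to 2.46. Reads of near-identical family members (Slc22a, Nat8f, Ugt) could be split between them, which leaves the share of each uncertain. Miox, the kidney enzyme that opens myo-inositol, ran from 1.57 CPM in WT cisplatin 4 to 275 CPM in WT cisplatin 6, and its call was lost without WT cisplatin 6 (adjusted p = 0.171). Several of these genes depend on androgen in male kidney, and of 12 listed androgen-dependent genes 8 were higher and none lower (median log2 fold change 0.79). Kap, the most abundant androgen-driven transcript of the male kidney, did not pass, at 169 to 472 against 192 to 382 CPM (adjusted p = 0.0968), and both groups were far below the PBS range of 14647 to 17145 CPM.

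Of 16 listed genes for the entry, exit and conjugation of cisplatin 5 were higher and none lower, where 8.26% of all genes were higher. Slc22a2, the organic cation transporter OCT2 that carries cisplatin into the cell, was at 40.0, 57.9 and 79.1 CPM in the high-Lrp2 group and at 10.7, 27.6 and 35.9 CPM in the low-Lrp2 group, against 273 to 340 CPM under PBS. The cisplatin groups did not overlap (log2 fold change 1.32, SE 0.21, adjusted p = 0.00227). Ggt1, the brush border peptidase that acts on glutathione conjugates of cisplatin, had a log2 fold change of 1.13 (adjusted p = 0.00415). Slc47a1 (MATE1), the exporter of organic cations, had a log2 fold change of 0.62 (adjusted p = 0.0131), which was lost without WT cisplatin 6 (adjusted p = 0.094), and Slc31a1, a copper importer that also passes cisplatin, one of 0.34 (adjusted p = 0.00911). These kidneys were sampled after treatment, so what each animal expressed before its first dose was not measured. Metallothioneins Mt1 and Mt2, which bind metals, had log2 fold changes of −0.37 and −0.46 and did not pass (adjusted p = 0.261 and 0.292).

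Mitochondrial and lipid-burning genes were higher in the high-Lrp2 group in nearly all listed members. All 18 listed nuclear genes of the respiratory chain were higher in the high-Lrp2 group, 12 of them without overlap, at a median log2 fold change of 0.39. Over all tested genes 8.26% were higher and 2.49% did not overlap. Cyc1, of complex III, was at 129, 151 and 181 CPM against 97.0, 112 and 123 CPM (log2 fold change 0.51, SE 0.08, adjusted p = 0.00183). Of these 18, the same number passed without WT cisplatin 6, and 17 without HET cisplatin 8. Of 13 genes of the mitochondrial genome 10 were higher (median 0.71). mt-Nd5, of complex I, was at 2651, 3437 and 4539 CPM against 1668, 2212 and 2630 CPM (log2 fold change 0.74, SE 0.12, adjusted p = 0.00284). mt-Nd6, the listed gene encoded on the opposite strand, was nearly even, at 126 to 182 against 120 to 167 CPM (log2 fold change 0.09, adjusted p = 0.56). Of 19 genes of fatty acid oxidation 18 were higher (median 0.51), with Cpt1a, the entry enzyme of long chains, the exception at 0.17 (adjusted p = 0.274), and the count was 10 without WT cisplatin 3. Decr1 was at 84.5, 97.5 and 148 CPM against 57.9, 71.6 and 84.4 CPM (log2 fold change 0.69, SE 0.10, adjusted p = 0.00217).

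**Figure D3:**
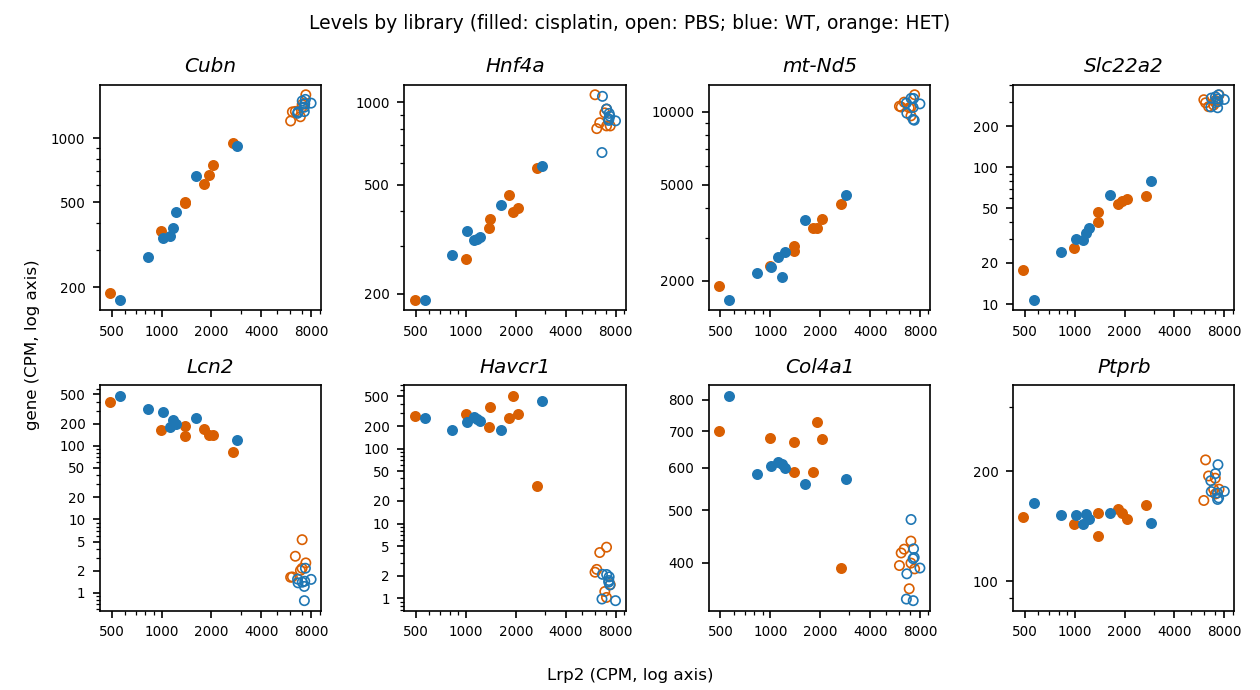
TMM-scaled CPM of 8 genes (vertical axes, log scale) against Lrp2 in CPM (horizontal axes, log scale) in each of the 31 libraries; filled points are cisplatin and open points PBS, blue WT and orange HET. Among the cisplatin libraries Cubn, Hnf4a, mt-Nd5 and Slc22a2 climb with Lrp2 towards the PBS points, and Lcn2 declines. Havcr1, Col4a1 and Ptprb did not pass between the cisplatin groups, with correlations with Lrp2 within genotype of −0.155, −0.577 and −0.03. For Ptprb every cisplatin point lies below the PBS points, which start at 166 CPM. For Havcr1 the high-Lrp2 library HET cisplatin 6, at 31.6 CPM, is far below the other cisplatin libraries, and PBS is at 0.931 to 4.83 CPM.

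Other metabolic lists moved less evenly. Of 17 glycolysis genes 9 were higher (median 0.34), among them Gapdh at 1050 to 1625 against 987 to 1138 CPM (log2 fold change 0.41, SE 0.08, adjusted p = 0.00378), so a gene often used as a reference differed between the groups. Of 15 genes of cholesterol synthesis 7 were higher (median 0.61), among them Sqle, squalene epoxidase, at 60.7, 75.5 and 105 against 40.5, 50.2 and 63.4 CPM (log2 fold change 0.65, SE 0.12, adjusted p = 0.00308). That count was 3 without WT cisplatin 6 and 4 without HET cisplatin 8. Of 10 genes of vitamin D and phosphate handling 5 were higher. Kl, which encodes klotho, the coreceptor of FGF23, was at 198, 240 and 391 CPM against 82.9, 152 and 194 CPM, with no overlap (log2 fold change 1.02, SE 0.21, adjusted p = 0.00556, and 0.0546 without WT cisplatin 6). Pth1r, the parathyroid hormone receptor, had a log2 fold change of 1.04 (adjusted p = 0.00299). Without WT cisplatin 6 only 1 of the 10 passed, and 3 without HET cisplatin 8.

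The later segments of the nephron were described in the same way, with no test of a difference between segments. In the thick ascending limb 5 of 10 genes were higher, at a median of 0.40: Egf, which this segment makes in large amounts, was at 124, 204 and 400 CPM against 45.4, 84.7 and 120 CPM, without overlap (log2 fold change 1.61, SE 0.30, adjusted p = 0.00378). Umod, the gene of uromodulin, was at 1001, 1302 and 1831 CPM against 354, 926 and 1150 CPM (log2 fold change 0.91, SE 0.19, adjusted p = 0.00682), while Slc12a1, the salt transporter of the segment, did not pass (0.47, adjusted p = 0.106). In the distal convoluted tubule 1 of 10 was higher (Cnnm2) and 1 lower (Trpm6). Over all genes 8.26% were higher and 3.67% lower, so these counts are close to the background. Trpm6, a magnesium channel, was at 13.1, 15.5 and 16.5 CPM in the high-Lrp2 group and at 15.5, 22.4 and 26.4 CPM in the low-Lrp2 group, with PBS at 17.8 to 40.8 CPM. Its log2 fold change was −0.49 (SE 0.12, adjusted p = 0.0164), so for this channel the low-Lrp2 kidneys were the nearer to PBS, and the call was lost without HET cisplatin 2, WT cisplatin 3 or WT cisplatin 6 (adjusted p up to 0.08). Of 12 intercalated cell genes 3 were higher (Slc4a9, Slc26a4 and Car2), none of them without HET cisplatin 8, and 1 of 11 principal cell genes was lower, Gata3 (log2 fold change −0.28, adjusted p = 0.0334, lost in 6 of the 16 omissions of 1 library).

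Podocytes and endothelium served as parts of the kidney that Lrp2 does not mark. None of 12 podocyte genes passed in edgeR or limma voom, 1 did in DESeq2, and 2 had an unadjusted p under 0.05. None of 12 endothelial genes passed in edgeR, DESeq2 or limma voom or had an unadjusted p under 0.05. Over all tested genes 11.9% passed in edgeR, so a count of none in a list of 12 says little by itself. Ptprb, a phosphatase of endothelium, was at 133 to 162 CPM in the high-Lrp2 group and at 143 to 164 CPM in the low-Lrp2 group (log2 fold change −0.01, SE 0.05, adjusted p = 0.933). Podxl, the sialomucin of podocytes, was at 196 to 225 against 185 to 236 CPM (log2 fold change −0.01, SE 0.06, adjusted p = 0.928).

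Injury genes gave few calls, most with fold changes below 0. All 16 cisplatin kidneys carried high Havcr1, from 31.6 to 513 CPM beside 0.931 to 4.83 CPM under PBS, but the groups overlapped widely: 31.6, 276 and 513 CPM in the high-Lrp2 group and 180, 252 and 293 CPM in the low-Lrp2 group (log2 fold change 0.16, SE 0.38, adjusted p = 0.831). The highest value, in HET cisplatin 4, and the lowest, in HET cisplatin 6, were both in the high-Lrp2 group. Spp1, the gene of osteopontin, and Cdkn1a, the cell cycle inhibitor p21, had log2 fold changes of −0.05 and −0.20 (adjusted p = 0.857 and 0.365). Of 26 listed genes of tubular injury 4 were lower in the high-Lrp2 group, where 3.67% of all genes were, and none higher, at a median of −0.33. At an unadjusted p under 0.05 there were 12 lower and none higher, and 3 of the 26 fold changes were above 0. With library totals as the scaling 8 were lower, without HET cisplatin 6 also 8, without HET cisplatin 8 only 1 and without WT cisplatin 6 none, and 2 in each of 6 other omissions.

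The 4 injury genes past the threshold were Cp, S100a6, Timp2 and Lcn2. Cp, the gene of ceruloplasmin, was at 249, 351 and 438 CPM in the high-Lrp2 group and at 394, 496 and 590 CPM in the low-Lrp2 group, with PBS at 39.8 to 62.4 CPM (log2 fold change −0.48, SE 0.12, adjusted p = 0.0145). S100a6, a calcium-binding protein, was at 32.0, 149 and 226 CPM against 216, 296 and 503 CPM (log2 fold change −1.24, SE 0.34, adjusted p = 0.027). Lcn2 was at 81.9, 141 and 242 CPM against 166, 258 and 483 CPM, with PBS at 0.786 to 5.30 CPM (log2 fold change −0.82, SE 0.26, adjusted p = 0.0478). The highest Lcn2 values were those of WT cisplatin 4 and HET cisplatin 8, which hold the least Lrp2. The call of Lcn2 was lost in 10 of the 16 omissions of 1 library and that of Timp2 in 10, while S100a6 lost it in 3 and Cp in 2 (without HET cisplatin 8 or WT cisplatin 6, adjusted p up to 0.0742). Among 15 genes of failed repair only the cadherin gene Cdh6 passed, lower in the high-Lrp2 group (log2 fold change −0.75, adjusted p = 0.0427, lost in 11 omissions). That count is close to the 3.67% of all genes that were lower.

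Among genes of the DNA damage response, 6 of 31 p53 targets were lower (Gtse1, Perp, Eda2r, Ercc5, Polk and Zmat3) and 1 higher in the high-Lrp2 group, at a median of −0.21, where 3.67% of all genes were lower. At an unadjusted p under 0.05 there were 12 lower and 1 higher, 5 of the 31 fold changes were above 0, and with library totals 10 were lower. Without WT cisplatin 6 or without HET cisplatin 8 only 1 was lower. Polk, a DNA polymerase that bypasses damaged bases, was at 43.6, 58.1 and 64.3 against 58.6, 66.3 and 78.6 CPM (log2 fold change −0.35, SE 0.07, adjusted p = 0.00761). The gene that was higher, Dglucy, which breaks down D-glutamate, was at 147, 166 and 221 against 104, 120 and 142 CPM, without overlap (log2 fold change 0.49, SE 0.10, adjusted p = 0.00449). Its PBS range, 143 to 186 CPM, covered most of the high-Lrp2 kidneys. Of 26 cell cycle genes none passed in edgeR, 2 had an unadjusted p under 0.05, and 2 passed in DESeq2 and 1 in limma voom.

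Markers of stroma and blood cells gave few calls. Of 21 fibroblast and matrix genes none passed in edgeR or limma voom, 2 were lower in DESeq2 and 12 had an unadjusted p under 0.05, all lower in the high-Lrp2 group, with 20 of the 21 fold changes below 0 and a median of −0.33. Without HET cisplatin 6 there were 5 lower, and with library totals 3. The summed CPM of the list was 1252 to 2706 in the high-Lrp2 group, where HET cisplatin 6 was the lowest, 2157 to 3177 in the low-Lrp2 group and 1254 to 1619 under PBS. Of 17 macrophage and monocyte genes Cd68, a lysosomal protein, passed, at 2.79, 6.34 and 8.30 against 5.11, 7.51 and 35.9 CPM (log2 fold change −1.23, SE 0.36, adjusted p = 0.0337). The value of 35.9 is that of HET cisplatin 8, without which the adjusted p was 0.368. The list's summed CPM was 79.1 to 351 in the high-Lrp2 group and 232 to 413 in the low-Lrp2 group, and the part of these cells in the other results was not tested. No neutrophil, lymphocyte or cytokine gene passed in edgeR or limma voom, from 8, 3 and 15 tested (1 neutrophil and 1 cytokine gene passed in DESeq2, and 1, 2 and 3 had an unadjusted p under 0.05).

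The 15 largest falls in the high-Lrp2 group were taken among genes with a mean of at least 1 CPM in the low-Lrp2 group. Sprr2f, a small proline-rich protein of stressed epithelia, was at 0.768, 7.71 and 16.7 CPM in the high-Lrp2 group and at 11.9, 18.8 and 85.7 CPM in the low-Lrp2 group, with PBS at or below 0.106 CPM (log2 fold change −2.38, SE 0.54, adjusted p = 0.00965). Its 2 highest values, 85.7 and 74.3 CPM, were in HET cisplatin 8 and WT cisplatin 4, and without the former the adjusted p was 0.121. Serpina3n, an acute-phase protease inhibitor, was at 2.95, 14.6 and 22.6 against 21.4, 36.1 and 65.4 CPM, with PBS at 0.0701 to 2.12 CPM (log2 fold change −1.61, SE 0.39, adjusted p = 0.0143, and up to 0.0564 without HET cisplatin 8 or WT cisplatin 6). Ahnak2, a large scaffold protein, was at 2.69, 9.19 and 12.7 against 13.8, 18.9 and 24.7 CPM, without overlap, and at 1.68 to 3.73 CPM under PBS (log2 fold change −1.37, SE 0.27, adjusted p = 0.00513). The others of the 15 largest were Serpina3m, Crct1, Sftpd, Adam23, Nipal4, Atg9b, Mmp7, Cpz, Ms4a4a, Cd109, Vcan and Nanos1, at log2 fold changes from −2.58 to −1.36, and all but Adam23 lost their call in at least 1 omission.

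Other lists were close to the background. Of 17 genes of BMP signalling, the pathway that the product of Nbl1 antagonises, none passed in edgeR, DESeq2 or limma voom and 2 had an unadjusted p under 0.05. Nbl1 itself was at 0.86, 8.69 and 18.1 CPM in the high-Lrp2 group and at 9.95, 21.0 and 26.2 CPM in the low-Lrp2 group, beside the uneven mix of genotypes. With genotype in the model its log2 fold change was −0.87 (SE 0.42, adjusted p = 0.183). None of 17 immediate early genes passed in edgeR, DESeq2 or limma voom (2 at an unadjusted p under 0.05), and 1 of 15 interferon-stimulated genes was lower. Of 11 heat shock genes the 2 that were higher, Hspd1 and Hspe1, encode the chaperonin of the mitochondrial matrix. Hspd1 was at 189, 254 and 317 against 144, 170 and 200 CPM (log2 fold change 0.58, SE 0.11, adjusted p = 0.00357), and its median under PBS was 691 CPM. Of 15 NRF2 targets only Me1, the malic enzyme, was higher (0.58, adjusted p = 0.00695, and 0.0553 without WT cisplatin 6), and of 15 clock genes only Hlf (0.93, adjusted p = 0.0132, and 0.058 without HET cisplatin 8).

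Likeness to Lrp2 was described across the 16 libraries by Pearson's correlation of log2 CPM after the genotype means were removed, over genes with a mean of at least 10 CPM and with no test. The highest values were those of Cubn (0.989), Ggt1 (0.988), Mccc1 (0.988), Kl (0.986) and Sardh (0.985), and the lowest those of Septin8 (−0.951), Baz2a (−0.938), Rapgef6 (−0.935), Atp6v0a1 (−0.933) and Odf2 (−0.928). All libraries share their scaling, so a gene that takes a large share of the counts moves the others slightly. Sardh, a mitochondrial enzyme that breaks down sarcosine, was at 109, 145 and 213 against 42.7, 79.7 and 102 CPM (log2 fold change 1.14, SE 0.20, adjusted p = 0.00299). Septin8, a cytoskeletal GTPase, was at 37.6 to 53.01 CPM (median 46.3) against 52.2 to 67.8 CPM (median 56.1) (log2 fold change −0.41, SE 0.09, adjusted p = 0.00965), and its call was lost without WT cisplatin 6 (adjusted p = 0.0538).

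Beside the PBS kidneys, the high-Lrp2 kidneys stood between the low-Lrp2 and the PBS kidneys for most genes that differed. The PBS mean lay above the high-Lrp2 mean in 1384 of the 1502 genes that were higher (92.1%) and below it in 628 of the 668 that were lower (94%). Over all tested genes it lay above in 44.2% and below in 55.8%. The high-Lrp2 libraries enter both sides of this description, and no test was made of it.

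The same order was asked for among the 15 PBS kidneys, which took no part in the choice. There the slope on log2 Lrp2 passed for 14 of 17816 genes (0.0786%), 2 upward (0.0112%) and 12 downward (0.0674%), with 2021 at an unadjusted p under 0.05, where the same slope among the cisplatin kidneys passed for 23.5%. The Nbl1 level of HET PBS 1 and 6 and WT PBS 6 lay below the others with their label. Without these libraries 40 genes passed. Lrp2 spans a far narrower range under PBS, so the counts cannot be compared as sizes of effect. Igfbp5, a binding protein of insulin-like growth factors, rose with Lrp2 in PBS kidneys (slope 1.64, SE 0.29, adjusted p = 0.0479) and was higher in the high-Lrp2 cisplatin group, at 203, 289 and 427 against 91.8, 127 and 226 CPM (log2 fold change 1.11, SE 0.21, adjusted p = 0.00414). Acnat2, a peroxisomal acyltransferase, went opposite ways (slope −4.06, adjusted p = 0.042, under PBS and log2 fold change 1.02, adjusted p = 0.0203, between the cisplatin groups). The difference between these slopes and the cisplatin values was not tested.

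WT and HET kidneys, as labelled, were also fitted apart, and these fits share no library. Among the 8 WT cisplatin libraries alone (2 high-Lrp2 against 6 low-Lrp2) 848 of 19159 genes passed (4.43%), 671 higher and 177 lower. Of these, 842 were tested among the 8 HET libraries alone (6 against 2), and 832 (98.8%) had the same direction there, where 71.5% of 18859 genes did. Both fits divide their libraries by Lrp2, so genes that follow Lrp2 share a direction in part by that choice. The shared direction is therefore a description and not an independent replication. The genes were chosen for passing in WT, so their sizes in the 2 genotypes are not compared. Without WT cisplatin 6, which leaves 1 high-Lrp2 WT library assumed to vary like the others, 36 genes passed in WT. Of these, 34 (94.4%) had the same direction in HET, where 67.5% of 19089 genes did. Without HET cisplatin 3 and 4, 833 of 841 (99.0%) did, where 71.8% of all genes did. Among HET libraries alone only 1 gene of 19367 passed in edgeR (0.00516%), with 2217 at an unadjusted p under 0.05. The test of whether the difference between the groups itself differed by genotype called none of 18182 genes in edgeR, with 436 at an unadjusted p under 0.05, against 2 in DESeq2 (Gm10131 and Fam220a). Setting the groups within each genotype, 4 against 4, moved 4 libraries to the other group and left 582 genes higher and 107 lower.

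**Figure D4:**
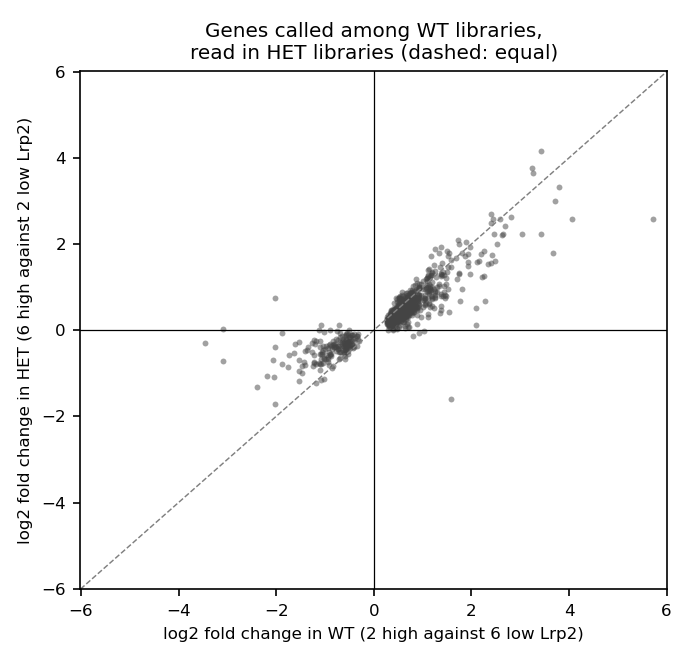
Log2 fold change of the 842 genes that passed among WT cisplatin libraries alone (horizontal axis, 2 high-Lrp2 against 6 low-Lrp2) and of the same genes among HET cisplatin libraries alone (vertical axis, 6 against 2); the dashed line marks equal values. Most points, 832 of 842, lie in the quadrants of equal sign, in part because both axes divide the libraries by Lrp2. The genes were chosen for their WT values, so distance from the dashed line is not compared.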

How the data were processed

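Kidney RNA of 31 mice was sequenced; the labels' protocols name a magnetic bead kit for the RNA and a poly(A)-based KAPA mRNA library kit, with no strand setting. Per the submitters' processing notes fastp, STAR, featureCounts were used, and GRCm38 and mm10 are named as builds, with no versions or settings. The authors deposited 1 table of 55487 genes that holds 3 values of each library, read here as counts, TPM and FPKM. The deposited counts are expected counts (12.5% of values are not whole) and were rounded before testing. Which tool gave the values that are not whole is not stated. The deposited TPM values served 1 alternative, and the deposited FPKM values were not used. No 2 libraries held identical counts.

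Libraries were grouped by the labels, then the 16 cisplatin libraries by Lrp2 CPM of the total. edgeR 4.0.16 (TMM, filterByExpr, quasi-likelihood F test, R 4.3.3) was fitted to these 16 with genotype as a covariate, with Lrp2 left out of the results and p-values adjusted by Benjamini-Hochberg over 18182 genes. Standard errors were derived as the absolute log2 fold change divided by the square root of edgeR's F statistic. Log2 fold changes carry a prior count of 0.125. Library properties were compared by exact tests. On simulated counts of 18183 genes, 100 were changed by 1 and 100 by 0.5 on the log2 scale, upward and downward in equal number. The fit recovered 76% of the former and 55% of the latter. The data gave far more calls, most of them upward, so these rates need not hold for them. The p-values set the difference between the groups against the spread between animals within them. Since Lrp2 chose the groups, they describe an association with the Lrp2 order. The alternatives used DESeq2 1.42.0, limma 3.58.1, other scalings, filters, covariates and groupings, and the omission of each library. The groups, the 36 gene lists and the tests were chosen with earlier results of these data known, so counts over a list are descriptions and carry no test of the list. Genes named are the 15 largest changes in each direction (mean of at least 1 CPM in the higher group), up to 3 members of each list by p or abundance, Cubn, Havcr1, Lcn2, Nbl1, the genes most like or unlike Lrp2 and those called under PBS. Further list members, and the gene whose promoter is shown, were named after their values were seen. Some genes that the rule names are not reported here. Promoter sequences come from RefSeq on GRCm38.p6 and exons from GENCODE M21. Total counts per library of 24.7 to 37.3 in units of 1e6 limit precision mainly for genes below 1 CPM.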

Additional observations from a re-analysis of the deposited data

Results flagged for a closer look

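In 112 groups of 8 libraries (53 genes and 3 library measures, each within 1 genotype under cisplatin), 17 held a library whose gap to its nearest neighbour was large for the group's range. For a single group chance would mark about 1 in 20. Many of the genes were chosen by their values and move together within a library, so the 17 cannot be set against that rate.

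HET cisplatin 6, the second highest in Lrp2, accounts for 7 of these. It was the lowest HET cisplatin library for Havcr1 (31.6 CPM, the others 194 to 513), S100a6 (32 CPM), Serpina3n (2.95 CPM), Cdh6 (17.5 CPM) and Cd109 (3.14 CPM), and was lowest too for the collagen gene Col4a1 (391 CPM, the others 589 to 729) and the lysozyme gene Lyz2 (8.19 CPM).

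WT cisplatin 6, the highest in Lrp2, accounts for 4: it was the highest WT cisplatin library for Havcr1 (438 CPM, the others 180 to 261) and Me1 (257 CPM) and the lowest for Polk (43.6 CPM) and Nbl1 (10.7 CPM). So the pair at the top of the Lrp2 order stood at opposite ends for Havcr1, a difference not tested.

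HET cisplatin 8, the lowest in Lrp2, was the lowest of its genotype for Umod (354 CPM, the others 877 to 1790) and Esrrg (35.6 CPM) and the highest for Cd68 (35.9 CPM, the others 2.78 to 8.22). WT cisplatin 4 was the highest WT library for Col4a1 (815 CPM). HET cisplatin 2 was the highest HET library for Trpm6 (23.2 CPM, the others 13.1 to 16.5), and HET cisplatin 4 for Star (205 CPM, the others 1.28 to 2.11).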

How the results depend on the processing

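The main counts were 1502 higher and 668 lower in the high-Lrp2 group. Leaving out 1 library at a time gave 789 to 1634 higher and 152 to 858 lower, with the smallest counts without WT cisplatin 6 and the next without HET cisplatin 8 (868 and 261). The lower count moved to 1751 with library totals, 1057 with DESeq2 and 426 with the animals numbered in the 600s alone, and the higher count to 861 with limma on log2(TPM + 1). Groups within each genotype gave 582 and 107, the slope on log2 Lrp2 2421 and 1860, the 5 highest against the 5 lowest 963 and 237, all 31 libraries in the fit 2503 and 1033, WT alone 671 and 177 and HET alone 0 and 1. Added after the data were seen, the fit without HET and WT cisplatin 6 gave 1015 and 299, and that without HET cisplatin 8 and WT cisplatin 4 gave 714 and 169. Added likewise, WT alone gave 29 and 7 without WT cisplatin 6, and HET alone 0 and 0 without HET cisplatin 3 and 4. The genotype test gave 2 genes with DESeq2 and 1 with a slope on log2 Lrp2. The PBS slope gave 55 genes with library totals. It gave 40 without HET PBS 1 and 6 and WT PBS 6, whose Nbl1 was low for their label. That omission was chosen after seeing the data. Fewer libraries enter several of these fits, and the cause of the other shifts was not tested. No gene that the rule named and that passed changed direction in any alternative in which it was fitted. Many lost their call, however: 50 of the 148 named genes with groups within each genotype, where 1 other gained a call. The call was lost by 37 with WT alone, 94 with HET alone and 32 without WT cisplatin 6. Of the 148 named genes, 21 were not fitted with log2(TPM + 1), 15 were not with a filter of 1 CPM in 8 libraries and 3 had no value with DESeq2; 1 had none with groups by Cubn and 1 with WT alone. Between 898 (without WT cisplatin 6) and 2117 (without HET cisplatin 6) of the 2170 main calls were shared when 1 library was left out, all in the same direction. No paired analysis was possible because the labels give no replicate numbers shared between groups. Counting depth limits genes near 0.1 CPM, where a library holds only a few reads.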

Other observations

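HET cisplatin 4 held transcripts of the steroid-making enzymes of the adrenal cortex. Its levels were 205 CPM for Star, which brings cholesterol into mitochondria, 61.8 CPM for Cyp11a1, 147 CPM for Cyp11b1, 166 CPM for Cyp21a1 and 114 CPM for Hsd3b1. The highest levels in the other 30 libraries were 2.47, 0.2, 0.432, 0.333 and 0.266 CPM. The library is the fourth of the high-Lrp2 group, and leaving it out left 2061 called genes, of which 1960 were among the 2170 called with it. The list of adipose, muscle and adrenal markers, 6 tested, held no called gene in edgeR, DESeq2 or limma voom, and 1 at an unadjusted p under 0.05.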
